A study of Mus musculus with 6 samples.

Results

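The genes described here are Grin1, Grin2a, Grin2b, Grin2c, Grin2d and Grin3a, which encode subunits of the NMDA receptor. They were taken as the rows of the deposited count table whose Ensembl identifiers carry these symbols in the mouse GENCODE annotation of GRCm38, 6 of 55487 genes. All 6 passed the filter on low counts. The counts come from visual cortex of UTRmut mice, homozygous for the Mmp9 UTR mutation (Mmp9em1Iimcb), of het mice with 1 mutant and 1 wild-type allele, and of WT mice of the same B6.CBA/Tar strain, all at postnatal day 28. Each genotype had 1 female and 1 male library of total RNA. The deposited column names number the females and the males as separate sets, so sex and set cannot be told apart. The labels do not say which untranslated region or which bases are changed, or whether animals were pooled or litters shared. The p-values therefore reflect variation among single libraries, which can be technical as well as biological.

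The NMDA receptor is a glutamate-gated channel that opens when glutamate and a co-agonist bind while the membrane is depolarised, and it admits calcium that drives synaptic plasticity. GluN1, from Grin1, is present in every receptor and binds glycine or D-serine. The GluN2 subunits, from Grin2a to Grin2d, bind glutamate and set the channel's kinetics, and GluN3A, from Grin3a, lowers calcium entry and magnesium block. In sensory cortex GluN2B is the main GluN2 subunit early in life, and GluN2A is added as the cortex matures and receives visual input. Matrix metalloproteinase 9 (Mmp9) is a secreted protease of the synaptic matrix, and the design asks how the transcriptome changes with its mutant allele. Transcripts in whole tissue do not report receptor protein at synapses, and fewer cells of a type and less RNA per cell cannot be told apart.

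The stretch of 27 coding bases that differs least among the 6 subunits is printed to show how related and yet separable they are. It was found by scanning the aligned coding sequences of the longest coding GENCODE M21 transcript of each gene (GRCm38). It lies in the segment that encodes the end of the third membrane span, which forms the gate of the channel. Each line runs 5′ to 3′ on the coding strand, and capitals mark bases that differ from Grin1 in the 5 members shown.
Grin1: tacactgccaacctggcagccttcctg
Grin2a: tacacAgccaacctggcTgccttcAtg
Grin2b: tacactgccaacTtAgcCgccttcAtg
Grin2c: tacacGgccaaTctggcagccttcAtg
Grin3a: tacacAgcGaacTtggcTgcTGtcAtg

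Even in this stretch any pair of these 5 genes differed at 3 to 7 bases, and Grin3a was the farthest from Grin1. Over all annotated transcripts no word of 50 bases was shared between any members, so reads that long and without mismatches cannot be moved from one subunit to another. The stretch lies on the minus strand of GRCm38 in each of the 5, at chr2:25297196-25297222 for Grin1, chr16:9653444-9653470 for Grin2a and chr6:135772241-135772267 for Grin2b. It is at chr11:115253746-115253772 for Grin2c and chr4:49770467-49770493 for Grin3a, within 1 exon each time.

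The genes differ widely in size and in what overlaps them. Grin1 (ENSMUSG00000026959) spans 28007 bases of chromosome 2, the chromosome that also carries Mmp9. Grin2b (ENSMUSG00000030209, chromosome 6) spans 460279 bases and Grin2a (ENSMUSG00000059003, chromosome 16) spans 427663. Grin2c (ENSMUSG00000020734, chromosome 11), Grin2d (ENSMUSG00000002771, chromosome 7) and Grin3a (ENSMUSG00000039579, chromosome 4) span 18075, 46496 and 184134 bases. Grin2a shares 2076 of its 17972 words of 50 bases with Gm7328, a processed pseudogene on chromosome 8 that had 0 to 4 counts in a library. Reads that match both leave a part of the Grin2a count uncertain. The strand setting of the counting is not given in the sources used here, so sense and antisense reads cannot be told apart where genes overlap. Grin2d overlaps the antisense gene Gm45441 over 643 exonic bases. Gm45441 had 64 and 47 counts in UTRmut, 46 and 67 in het, and 41 and 73 in WT libraries, as many as Grin2d itself, so the Grin2d counts are uncertain. The antisense gene Grin1os overlaps Grin1 over 1307 exonic bases and had 0 to 2 counts.

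Total counts were 9500090 to 11966579 a library, and 16119 genes were tested. Mmp9 had 8 and 16 counts in UTRmut, 9 and 9 in het, and 4 and 9 in WT libraries (female first in each pair), with no call in any comparison. Neuronal markers were present in every library. The summed level of 10 excitatory neuron markers was 1554 to 1792 CPM (counts per 1000000 counts of the library, with library sizes adjusted by the trimmed mean of M-values, TMM) and that of 9 interneuron markers was 696 to 824 CPM. The 6 cerebellar granule cell markers summed to 20.8 to 25.5 CPM, of which Neurod1 held 10.3 to 14.9 CPM, with Cbln1 and Pax6 also detected in every library, Gabra6 at 0.374 CPM or less and Barhl2 at 0 counts.

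Grin2b had the most reads and Grin2d the fewest. Grin2b, the juvenile glutamate-binding subunit, had 18118 and 17085 counts in UTRmut, 14718 and 15502 in het, and 16544 and 18669 in WT libraries, the female before the male. Scaled to library size, these were 1692 and 1487 CPM in UTRmut, 1532 and 1448 in het, and 1596 and 1612 in WT. The UTRmut libraries lay on both sides of the WT ones, and both het libraries lay below both WT libraries.

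Grin2a, the subunit of mature synapses, had 787 and 717 CPM in UTRmut, 726 and 677 in het, and 700 and 730 in WT libraries. The groups overlapped, and the female library was the higher one in UTRmut and het and the lower one in WT. Grin1, the obligatory subunit, had 411 and 464 CPM in UTRmut, 433 and 400 in het, and 453 and 394 in WT libraries. Its groups overlapped too, and its lowest and highest libraries were the WT male and the UTRmut male.

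Grin3a, the glycine-binding GluN3A, had 60.5 and 59.8 CPM in UTRmut, 57.6 and 58.9 in het, and 62.3 and 61.3 in WT libraries. It was the steadiest member. Its coefficient of variation over 6 libraries was 2.84%, below the 3.94% that counting error alone gives at its mean count of 646. Scaled by library total without TMM it was 4.05%. All 4 carriers of the mutant allele were below both WT libraries, by small margins within a spread close to counting error. How many of all genes tested show such an order was not counted. Grin3b, the other GluN3 gene and not a member, had 0 to 2 counts in a library.

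Grin2c, a GluN2 subunit known best from cerebellum, thalamus and astrocytes, had 18.6 and 20.9 CPM in UTRmut, 18.9 and 18.8 in het, and 16.5 and 23.8 in WT libraries. The WT pair thus held the lowest and the highest value of all 6. The summed level of 8 astrocyte markers, all with counts in every library, was 6379 and 5351 CPM in UTRmut, 5716 and 5705 in het, and 5095 and 5786 in WT libraries. It was lowest in the same WT female, but highest in the UTRmut female, where Grin2c had 18.6 CPM. In the WT male, where Grin2c was highest, it was 5786 CPM. Most of the sum was Slc1a2, with a mean of 4560 CPM. The part of astrocytes in the Grin2c values was not tested.

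Grin2d, which in cortex is known from interneurons, was scarce, with 52 and 57 counts in UTRmut, 51 and 38 in het, and 76 and 57 in WT libraries. These are 4.86 and 4.96 CPM in UTRmut, 5.31 and 3.55 in het, and 7.33 and 4.92 in WT. The WT female stood highest and the het male lowest. The summed interneuron markers were at 824 and 796 CPM in UTRmut, 761 and 755 in het, and 696 and 765 in WT libraries. Their part in the Grin2d values was not tested. The coefficient of variation of Grin2d was 23.8%, against 13.5% from counting error.

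**Figure D1:**
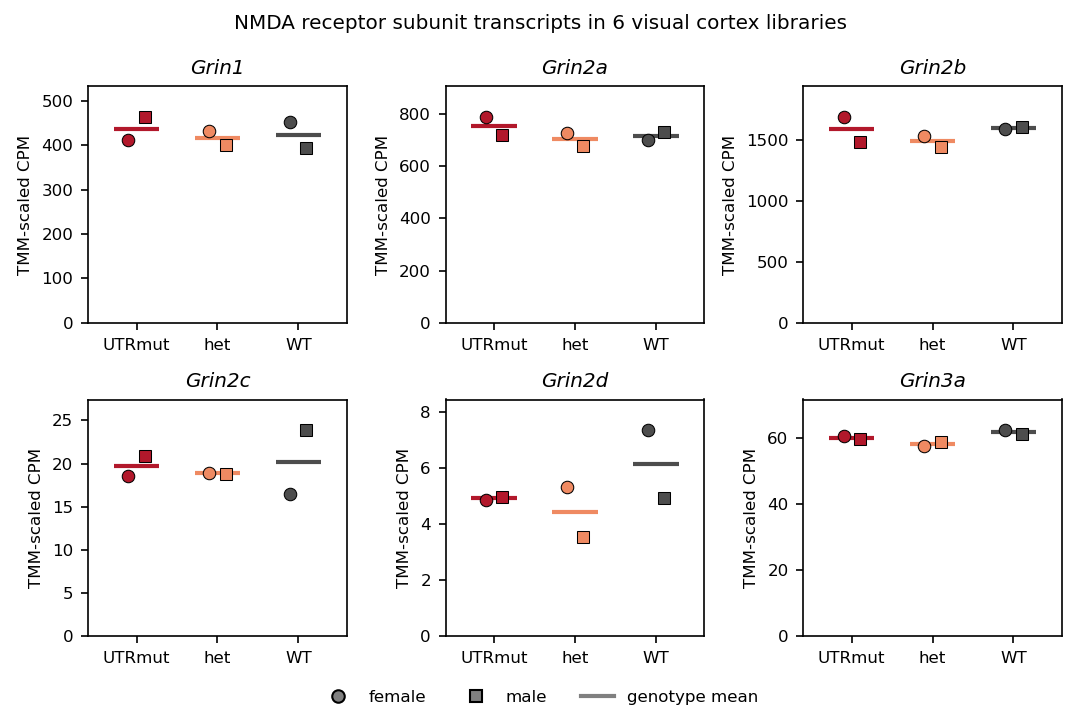
TMM-scaled CPM of each subunit by genotype, with the female library as a circle, the male library as a square and the genotype mean as a line; every axis starts at 0. Grin3a stays between 57.6 and 62.3 CPM in all libraries, while Grin2d reaches 7.33 CPM in the WT female.

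Levels can be set against each other only per length, and here the choice of length matters. Per kilobase of the union of all annotated exons, Grin2b averaged 62.8 ± 3.604 CPM per kb, Grin1 43.9 ± 2.95, Grin2a 40.3 ± 2.06, Grin3a 4.89 ± 0.139, Grin2c 3.89 ± 0.498 and Grin2d 0.774 ± 0.184 (SD, n = 6). Grin2b lay above Grin1 in all 6 libraries, without overlap. Grin1 and Grin2a overlapped, with Grin1 the higher in 4 of 6 libraries, and Grin3a and Grin2c overlapped in range although Grin3a was higher in each of the 6 libraries. The 8.24-fold step from Grin2a to Grin3a divides the abundant from the scarce members. Per kilobase of the longest coding transcript Grin1 instead came first, at 99.6 ± 6.70 CPM per kb, before Grin2b at 64.9 ± 3.72 and Grin2a at 49.4 ± 2.53 (SD, n = 6). The exon union of Grin1 is 9700 bases against 4276 for its longest coding transcript, and the counts do not say which transcripts were present.

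**Figure D2:**
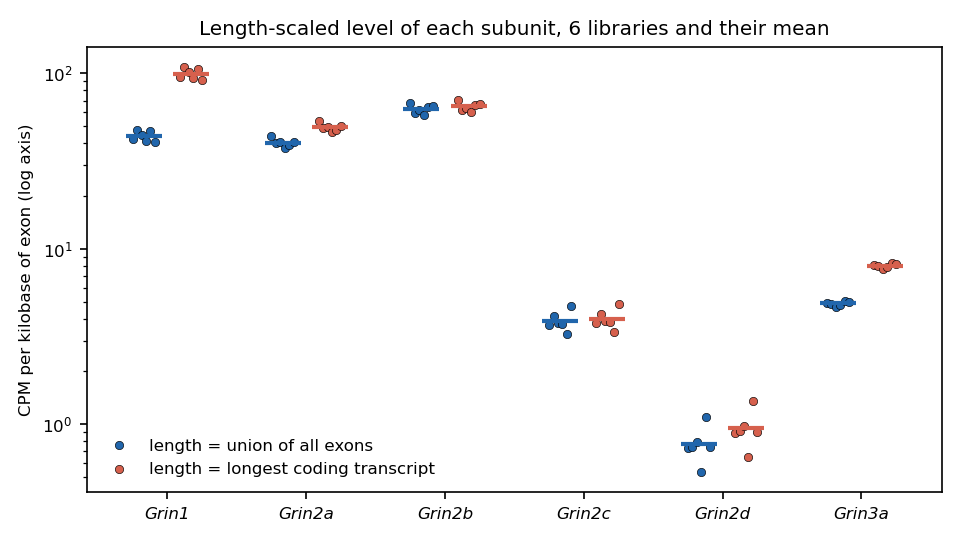
CPM per kilobase of exon on a log axis for each subunit, with 6 libraries as points and their mean as a line, for both definitions of length. Grin1 moves from 43.9 to 99.6 CPM per kb with the choice of length, whereas Grin2b moves only from 62.8 to 64.9; Grin3a, Grin2c and Grin2d stay far below in both.

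By exon-union length Grin2b made up 38.0% to 41.6% of the summed level of the 6 subunits in a library, Grin1 25.9% to 30.4% and Grin2a 24.5% to 26.8%. Grin3a held 3.01% to 3.28%, Grin2c 2.05% to 3.02% and Grin2d 0.364% to 0.690%. Summed over Grin2a to Grin2d, GluN2 transcripts stood at 2.47 ± 0.229 times Grin1 by exon-union length and at 1.20 ± 0.111 times by longest transcript (SD, n = 6). Both ways Grin2b remained ahead of Grin2a. The level of Grin2a per length was 0.642 ± 0.0213 of that of Grin2b by exon union and 0.762 ± 0.0253 by longest transcript (SD, n = 6). By both annotated lengths the juvenile subunit's transcript was thus the more abundant one at postnatal day 28, the only age sampled.

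No subunit passed in UTRmut against WT. The test was edgeR's quasi-likelihood F test on all 6 libraries, with Benjamini-Hochberg adjustment over all genes tested and a threshold of 0.05, which called 0.0062% of the genes tested. Grin2a had 752 ± 49.7 CPM in UTRmut and 715 ± 20.7 in WT (SD, n = 2 each), a log2 fold of 0.07 (SE 0.08, 95% interval -0.10 to 0.25). Grin2b had 1589 ± 145 CPM in UTRmut and 1604 ± 11.9 in WT, a log2 fold of -0.01 (SE 0.08, 95% interval -0.18 to 0.16). Grin1 had 437 ± 37.5 CPM in UTRmut and 424 ± 41.7 in WT, a log2 fold of 0.05 (SE 0.09, 95% interval -0.16 to 0.25). The 3 abundant subunits thus had intervals from 0.881-fold to 1.19-fold of WT, and larger changes lie outside them. Grin3a had a log2 fold of -0.04 (95% interval -0.24 to 0.17), and both UTRmut libraries lay below both WT libraries, within the small spread given above. Grin2c had -0.03 (95% interval -0.40 to 0.33) and Grin2d -0.31 (95% interval -0.93 to 0.30), so for Grin2d changes down to 0.527-fold lay within the interval. The Grin2d value rested on the WT libraries, at -0.0035 without WT replicate 1 (the female) and -0.57 without WT replicate 2 (the male). The edgeR adjusted p was 0.999 for each member, 0 of 6 had an unadjusted p under 0.05 and DESeq2 called 0 of 6. Over the 6 members the median log2 fold was -0.02, against -0.01 over all genes tested.

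In het against WT no subunit passed either, with 0.0124% of the genes tested called. All 6 members had negative log2 folds, with a median of -0.09 against a median of -0.00 over all genes tested. Excitatory neuron markers lay the same way. Their summed level was 1590 and 1554 CPM in het and 1629 and 1792 in WT libraries, without overlap, and 2 of the 10 had positive log2 folds, with a median of -0.16. Their part in the subunit values was not tested. Grin2b had 1490 ± 59.4 CPM in het and 1604 ± 11.9 in WT (SD, n = 2 each), a log2 fold of -0.11 (SE 0.08, 95% interval -0.28 to 0.06), without overlap between the libraries. Grin3a had 58.2 ± 0.909 CPM in het and 61.8 ± 0.695 in WT (SD, n = 2 each), also without overlap, and a log2 fold of -0.09 (SE 0.10). The share of all genes tested whose het and WT libraries do not overlap was not counted. With 2 against 2 libraries, lack of overlap cannot give an exact permutation p below 0.333. It is thus no result about Grin2b, Grin3a or the summed markers. Grin2d had the largest size, -0.47 (SE 0.29, 95% interval -1.09 to 0.16), and the lowest unadjusted edgeR p, 0.131. Leaving out 1 library moved it to -0.16 without WT replicate 1, -0.20 without het replicate 2, -0.73 without WT replicate 2 and -0.78 without het replicate 1. Without WT replicate 1 the size for Grin2c, -0.34, exceeded it. Grin2c had -0.10, Grin2a -0.03 and Grin1 -0.02. The edgeR adjusted p was 0.9998 for each, 0 of 6 had an unadjusted p under 0.05 and DESeq2 called 0 of 6.

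**Figure D3:**
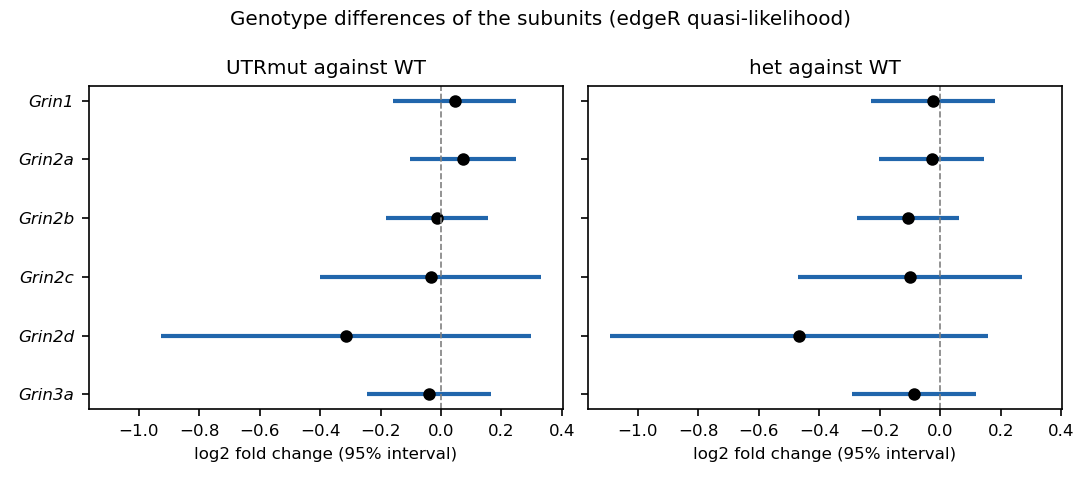
Log2 fold change (point) with its 95% interval (line) of each subunit in UTRmut against WT and in het against WT, which share their WT libraries. All 12 intervals include 0, and they are narrowest for Grin2b and Grin2a and widest for Grin2d.

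UTRmut against het and the slope over 0, 1 and 2 mutant alleles gave no call for any subunit. In UTRmut against het, with 0.0124% of the genes tested called, log2 folds were positive for all 6 members, from 0.05 for Grin3a to 0.16 for Grin2d. The median over all genes tested was -0.001. Of the 88 genes in the pathway lists described below, 59 were positive too. This comparison shares its het libraries with het against WT, so the signs in both are not independent. The excitatory neuron markers summed to 1770 and 1677 CPM in UTRmut and 1590 and 1554 in het libraries, with 8 of 10 log2 folds positive and a median of 0.08, and their part in the subunit values was not tested. Per mutant allele, where 0% of the genes tested were called, the log2 change was 0.04 (SE 0.04) for Grin2a, 0.02 (SE 0.05) for Grin1 and -0.01 (SE 0.04) for Grin2b. It was -0.02 (SE 0.05) for Grin3a, -0.02 (SE 0.08) for Grin2c and -0.16 (SE 0.14) for Grin2d. In both comparisons 0 of 6 had an unadjusted edgeR p under 0.05 and DESeq2 called 0 of 6.

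The Grin2a to Grin2b ratio, a common readout of receptor maturation, was higher in all 4 carriers of the mutant allele than in both WT libraries, but the design allowed no call for this ratio alone. Grin2a had 0.465 and 0.482 counts for each Grin2b count in UTRmut, 0.474 and 0.467 in het, and 0.439 and 0.453 in WT libraries, the female before the male. A ratio within a library does not depend on how libraries are scaled. The mean was 0.474 ± 0.0120 in UTRmut, 0.470 ± 0.00444 in het and 0.446 ± 0.00962 in WT (SD, n = 2 each). UTRmut stood 1.06-fold and het 1.06-fold above WT, without overlap in either comparison. The interval from counting error alone reached down to 0.453 in the UTRmut female and up to 0.464 in the WT male (exact binomial, 95%), so single carrier and WT libraries were not all separable by depth. The slope of the log2 ratio was 0.04 per mutant allele, with an exact two-sided permutation p of 0.0667 over 90 allocations and an adjusted p of 0.467 over 7 ratios (Benjamini-Hochberg). The smallest p this design allows is 0.0222, which for 1 ratio alone could not pass the adjustment over 7, and with 2 against 2 libraries it is 0.333, which was the exact permutation p of both UTRmut and het against WT. The ratio was thus not shown to change.

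**Figure D4:**
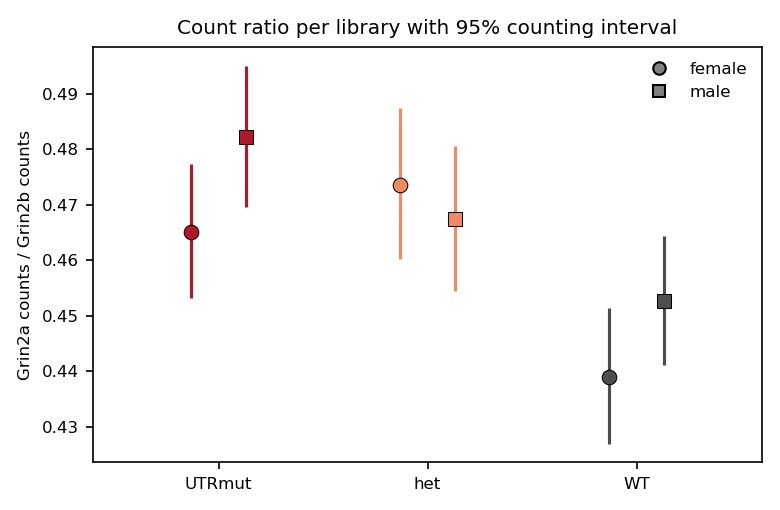
Grin2a counts divided by Grin2b counts in each library, with its exact binomial 95% interval for counting error as a line; the axis does not start at 0. The 4 carriers span 0.465 to 0.482 and lie above both WT libraries (0.439 and 0.453).

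The other 6 ratios had overlapping groups, with exact permutation p of at least 0.356 for the slope and an adjusted p of 0.867 each. Grin2b counts per Grin1 count were 4.12 and 3.21 in UTRmut, 3.54 and 3.62 in het, and 3.52 and 4.09 in WT libraries. Grin2a counts per Grin1 count were 1.92 and 1.55 in UTRmut, 1.68 and 1.69 in het, and 1.55 and 1.85 in WT libraries. In both ratios the UTRmut pair and the WT pair were spread in opposite order of sex, and the het pair lay between. Grin3a counts per Grin1 count averaged 0.138 ± 0.0130 in UTRmut, 0.140 ± 0.00987 in het and 0.147 ± 0.0128 in WT (SD, n = 2 each). Grin2c counts per Grin2a count averaged 0.0264 ± 0.00391 in UTRmut, 0.0269 ± 0.00116 in het and 0.0281 ± 0.00645 in WT. Grin2d counts per Grin2a count averaged 0.00654 ± 0.000530 in UTRmut, 0.00628 ± 0.00146 in het and 0.00860 ± 0.00263 in WT (SD, n = 2 each).

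Between the sexes, with genotype in the model and 0.0372% of the genes tested called, no subunit passed. Here and in the sex difference below, sex cannot be told apart from the numbered set of libraries. Grin2c averaged 18.0 ± 1.33 CPM in females and 21.2 ± 2.54 in males, a log2 fold of -0.23 (SE 0.13). Grin2d averaged 5.83 ± 1.32 CPM in females and 4.48 ± 0.804 in males (SD, n = 3 each), a log2 fold of 0.37 (SE 0.21). The log2 folds of Grin1, Grin2a, Grin2b and Grin3a were 0.05, 0.06, 0.08 and 0.00. The smallest edgeR adjusted p was 0.771, 0 of 6 had an unadjusted p under 0.05 and DESeq2 called 0 of 6.

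The change per mutant allele of Grin1 ran opposite ways in the sexes, but the difference did not pass. In females Grin1 had 411 CPM in UTRmut, 433 in het and 453 in WT. In males it had 464 CPM in UTRmut, 400 in het and 394 in WT. The slope in females minus that in males was -0.19 on the log2 scale (SE 0.07, 95% interval -0.33 to -0.05), with an unadjusted edgeR p of 0.00965 and an adjusted p of 0.189. In this comparison 1.2% of the genes tested were called and 13.6% had an unadjusted p under 0.05, so a low p was common. The other 5 members had differences from -0.31 (Grin2d) to 0.18 (Grin2c) and unadjusted p of at least 0.152. DESeq2 called 0 of the 4 members to which it gave an adjusted p, and gave none for Grin2c and Grin2d. Several marker lists varied with sex and genotype too. Zbtb20, expressed in hippocampal neurons and glia, had 138 CPM in the UTRmut female, 111 in the het female and 91.6 in the WT female, and 84.4, 122 and 140 CPM in the males in that order of genotype. The other 5 hippocampal markers summed to 54.2, 54.4 and 48.3 CPM in the females and 64.1, 53.5 and 60.4 CPM in the males. Of the 5 hippocampal markers tested, Zbtb20 among them, 4 had positive differences in this comparison (median 0.10). The 6 meningeal fibroblast markers all had positive differences in this comparison (median 0.61, 1 called), and their sum was 61.1 CPM in the UTRmut female, 54.1 in the UTRmut male, 43.0 in the WT female and 91.7 in the WT male. Oligodendrocyte markers summed to 2946 CPM in the UTRmut female, 3825 in the UTRmut male, 3669 in the WT female and 3644 in the WT male. The part of these lists in the Grin1 values was not tested. Leaving out each library in turn, the difference for Grin1 stayed negative, from -0.28 to -0.09.

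**Figure D5:**
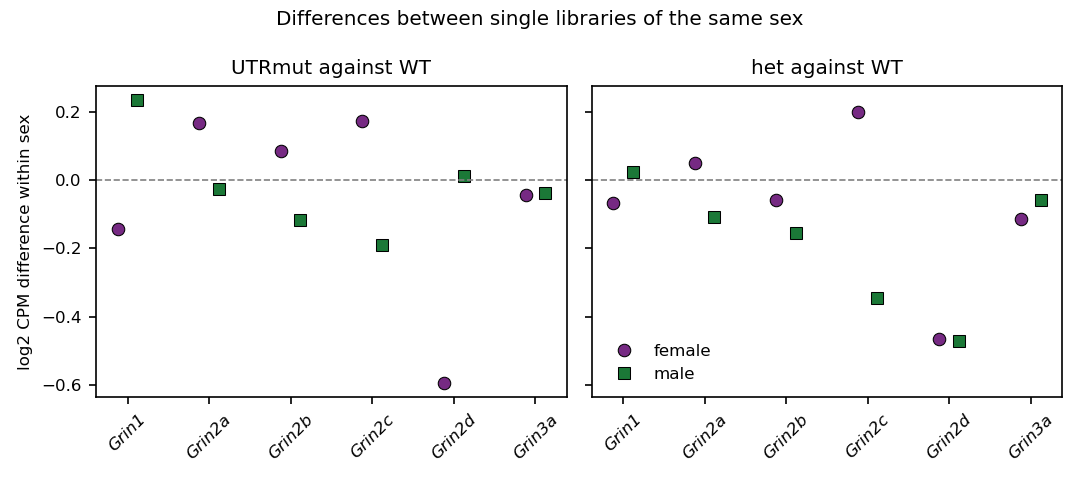
Log2 difference in CPM between single libraries of the same sex, females as circles and males as squares, for UTRmut against WT and het against WT. In UTRmut against WT Grin1 stands at -0.14 in females and 0.23 in males, while Grin3a stands at -0.04 in both sexes.

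Genes that supply the co-agonist, modify, anchor or relay the receptor were read from 6 lists of 88 genes, all of them tested. In UTRmut against WT 0 of 88 rose and 0 fell, with 50 positive log2 folds, a median of 0.01 and 2 genes at an unadjusted edgeR p under 0.05. Of all genes tested 0.0062% were called there and 2.71% had an unadjusted p under 0.05. In het against WT 0 of 88 rose and 0 fell, with 41 positive, a median of -0.01 and 3 at an unadjusted p under 0.05. Of all genes tested 0.0124% were called there and 2.37% had an unadjusted p under 0.05. The 2 and 3 genes are thus no result about these lists. DESeq2 called 0 of the 88 in both comparisons. All edgeR adjusted p of the 88 in both were at least 0.9988.

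Of 11 genes of co-agonist supply 4 were positive in UTRmut against WT and 5 in het against WT. Srr, the enzyme that makes D-serine, averaged 93.1 CPM in UTRmut, 86.7 in het and 96.5 in WT, with a log2 fold of -0.15 (SE 0.09) in het against WT. Shmt1 and Slc38a5 stood lowest in UTRmut against WT, at -0.67 (SE 0.47) and -0.87 (SE 0.48). Both were scarce, with means of 1.33 CPM in UTRmut and 2.11 in WT for Shmt1, and 0.768 CPM in UTRmut and 1.41 in WT for Slc38a5. Higher were Shmt2 (0.07) and Psat1 (0.03) in UTRmut, and Psph (0.17) and Psat1 (0.07) in het, with Shmt1 at -0.94 in het. These enzymes and carriers handle serine and glycine.

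Of 18 kinases and phosphatases that act on the receptor 13 were positive in UTRmut against WT and 6 in het against WT. The calcineurin subunit Ppp3ca was at 0.13 (SE 0.08) and the phosphatase Ppp1ca at 0.16 (SE 0.10) in UTRmut, with Prkaca at -0.09. Prkaca, the catalytic subunit of protein kinase A, had 107 and 110 CPM in UTRmut, 99.6 and 92.3 in het, and 115 and 115 in WT libraries. Its log2 fold in het against WT was -0.26 (SE 0.09, unadjusted edgeR p 0.0114) and did not pass. In het, Ppp1ca had 0.08, Src 0.03 and Camk2a, the main calcium-dependent kinase at the synapse, -0.09.

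Of 20 scaffolds and trafficking partners 12 were positive in UTRmut against WT and 9 in het against WT. Dlg1, which encodes the scaffold SAP97, had 380 and 370 CPM in UTRmut, 358 and 365 in het, and 315 and 337 in WT libraries. Both WT libraries were the lowest, and the log2 folds of 0.20 (SE 0.08, unadjusted edgeR p 0.0261) in UTRmut and 0.15 (SE 0.08) in het did not pass. Gipc1, an adaptor that binds NMDA receptors, had 55.1 and 68.9 CPM in UTRmut, 70.0 and 76.1 in het, and 52.8 and 58.6 in WT libraries. Its log2 fold in het against WT of 0.39 (SE 0.12, unadjusted edgeR p 0.00547) did not pass, and in UTRmut it was 0.16. Lower were Ephb2 (-0.25) and Kif17 (-0.40), the motor that carries GluN2B along dendrites, in UTRmut, and Lin7b (-0.35) and Dlg3 (-0.13) in het.

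Of 17 genes of signalling downstream of the receptor 11 were positive in UTRmut against WT and 7 in het against WT. Calmodulin gene Calm2 had 0.17 (SE 0.09) and Bdnf, an activity-dependent growth factor, 0.41 (SE 0.33) in UTRmut, with Kalrn at -0.12 and Rasgrf1 at -0.13. In het Bdnf had 0.28, Creb1 0.06, Rasgrf2 -0.20 and Kalrn -0.13. Bdnf had 81.8 and 75.0 CPM in UTRmut, 74.5 and 68.8 in het, and 39.6 and 77.9 in WT libraries, the female first. Both Bdnf folds thus rested on the WT female. In the difference between the sexes, Mapk3, the kinase ERK1, was the 1 gene of the 88 that passed, and it was named after its values were seen. That is 1.14% of the list, near the 1.2% called over all genes tested, and so no result about these genes as a group. It had 55.9 CPM in the UTRmut female, 58.8 in the het female and 71.4 in the WT female, and 68.8, 67.8 and 49.9 in the males in that order of genotype. The slope in females minus males was -0.41 (SE 0.09; edgeR, Benjamini-Hochberg adjusted p = 0.0422). The call was lost without WT replicate 1 (the female), WT replicate 2 (the male) or UTRmut replicate 1 (the female), with adjusted p of 0.630, 0.902 and 0.211 in that order, and with DESeq2 (0.205).

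Of 11 transcriptional regulators reported for subunit genes 7 were positive in both UTRmut and het against WT. Npas4, an activity-induced factor, averaged 45.9 CPM in UTRmut, 39.5 in het and 34.3 in WT, with log2 folds of 0.42 (SE 0.18, unadjusted edgeR p 0.0420) in UTRmut and 0.20 in het that did not pass. Sp4 was at 0.20, Hdac1 at -0.19 and Sp1 at -0.09 in UTRmut. Rest, the repressor of neuronal genes, was at 0.27, Hdac1 at -0.29 and Sp1 at -0.04 in het. Of 11 subunits of the AMPA, kainate and delta receptors, the other ionotropic glutamate receptors, 3 were positive in UTRmut and 7 in het. Gria2 (0.07), Gria1 (0.05) and Grid1 (-0.13) were named in UTRmut, and Grik3 (0.08), Grik4 (0.12), Grik5 (-0.27) and Grid1 (-0.17) in het.

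The genes most like each subunit over the 6 libraries were found by the root mean square difference of log2 CPM profiles centred on their means, among 13334 other protein-coding genes. For Grin2a they were Igip (0.016) and Ppig (0.019), for Grin2b Pitpnm2 (0.018) and Msl2 (0.018), and for Grin1 Snx4 (0.023) and H2afj (0.025). For Grin3a they were Ube3b (0.0077) and Tnik (0.013), for Grin2c E2f6 (0.038) and Rasgrp3 (0.039), and for Grin2d Terb1 (0.048) and Pcdhga10 (0.087). The profiles share libraries and their scaling, and with so little variation many genes look alike: 32.2% of the genes compared lay within 0.1 of Grin3a, 24.8% of Grin2a, 20.1% of Grin2b and 16.1% of Grin1. Within 0.1 of Grin2c were 2.17% and of Grin2d 0.0225%.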

How the data were processed

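The authors deposited raw read counts per Ensembl gene, with 1 column for each of 6 libraries. The submitters' processing notes list HTSeq 0.6.0, HISAT2, Trimmomatic 0.39, GATK 4.2.3.0 and the build GRCm38 without saying what each did. The labels' protocols give phenol/chloroform extraction and a stranded total RNA library kit. Neither the annotation release nor the strand setting of the counting is stated there. Symbols and lengths came from GENCODE M21, which matched 55227 of 55487 identifiers.

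Genes were kept with filterByExpr (minimum count 10, minimum total 15), scaled by TMM and tested by quasi-likelihood F tests (robust glmQLFit) in edgeR 4.0.16 under R 4.3.3, with genotype as a factor, the number of mutant alleles as a number, genotype plus sex, or alleles, sex and their product for the sex difference. The SE of a log2 fold is its size over the root of F. The alternatives were DESeq2 1.42.0, its size factors, no filter, a block for sex and leaving out each library. The code was tested on simulated data. Ratios of counts used exact permutation tests over libraries. Counting intervals and floors cover counting error only. Replicates of a genotype differed beyond counting noise (chi-square per degree of freedom of at least 4.17).

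All subunits were named in all comparisons. Of each pathway list the 2 genes with the smallest p in each direction in UTRmut and in het against WT were named, as were the 2 most similar profiles per subunit and Mmp9. Some items this rule picks are not reported here. The members and lists were chosen with earlier results of these data known.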

Additional observations from a re-analysis of the deposited data

Results flagged for a closer look

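Between the sexes, 5 of 155 pathway and marker genes tested (3.23%, against 1.2% of all genes tested) had a change per mutant allele that differed by the test of the difference itself (edgeR, Benjamini-Hochberg adjusted p 0.000268 to 0.0422), and no subunit did. In this comparison 13.6% of all genes had an unadjusted p under 0.05. Of the 88 pathway genes alone 1.14% were called. The lists were chosen with earlier results of these data known, so the 3.23% is no result about them as a group. Differences are the slope in females minus that in males on the log2 scale, where sex cannot be told apart from the numbered set of libraries. Mapk3 had -0.41. Aqp4, the astrocyte water channel, had 0.38, with 86.5, 80.6 and 63.4 CPM in UTRmut, het and WT females and 71.0, 78.7 and 87.7 in males of the same order. Col1a2, a fibroblast collagen, had 0.54. Rgs5, of mural cells, had 0.60. Zbtb20, a hippocampal and glial transcription factor, had 0.66, with 138, 111 and 91.6 CPM in UTRmut, het and WT females and 84.4, 122 and 140 in males. Zbtb20 alone of the 5 kept its call under all 9 alternatives, with differences of 0.50 to 0.83. Those that leave out 1 library have fewer residual degrees of freedom than the 2 of the full fit. Keeping a call under them therefore says little. The other 4 were called under 4 to 6 of 9, and each was lost without WT replicate 1 and without UTRmut replicate 1.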

How the results depend on the processing

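No subunit was called under any setting, where 2 of the DESeq2 results had no adjusted p (Grin2c and Grin2d in the sex difference). Of 348 recomputed subunit log2 folds 310 kept their sign and 38 reversed it, and of 49 recomputed ratio slopes 41 kept it and 8 reversed it. With DESeq2 the calls over all genes were 8 in UTRmut against WT, 7 in UTRmut against het, 4 per mutant allele, 10 in female against male and 77 in the sex difference. Without a filter they were 27, 28, 19, 92 and 600 in these comparisons and 13 in het against WT. With the replicate block for sex they were 4 in UTRmut against WT and 5 in UTRmut against het, and the Grin2a/Grin2b slope of 0.04 had an exact permutation p of 0.111. The main genotype tests left sex out, so they count a difference between the sexes or sets as variation among replicates. They called 1 gene in UTRmut against WT and 2 in UTRmut against het, fewer than with the block. Per mutant allele both ways gave 0 calls. Same-sex libraries shared deviations weakly, but always in the positive direction (r of 0.196, 0.0802 and 0.295 across genes). With 2 libraries a genotype the male deviations mirror the female ones and give the same r. These r therefore do not decide whether sex should be left out. Leaving out each library gave 2 to 124 calls in UTRmut against WT, 1 to 41 in het against WT, 0 to 12 in UTRmut against het, 0 to 45 per mutant allele, 7 to 198 in female against male and 16 to 733 in the sex difference. The 124, 41 and 45 calls came without WT replicate 2, the 12, 198 and 16 without WT replicate 1 and the 733 without het replicate 2, and the cause was not tested. By longest transcript the levels were 99.6 CPM per kb for Grin1, 49.4 for Grin2a and 8.02 for Grin3a.

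Folds that crossed 0 when a library was left out were, in UTRmut against WT, Grin1 (-0.042 to 0.15), Grin2b (-0.11 to 0.080) and Grin2c (-0.27 to 0.27). In het against WT they were Grin1 (-0.12 to 0.079), Grin2a (-0.078 to 0.021) and Grin2c (-0.34 to 0.20). In UTRmut against het they were Grin1 (-0.020 to 0.16), Grin2b (-0.00072 to 0.18), Grin2c (-0.020 to 0.15) and Grin2d (-0.11 to 0.47). Per mutant allele they were Grin1 (-0.021 to 0.075), Grin2a (-0.00089 to 0.064), Grin2b (-0.060 to 0.020), Grin2c (-0.11 to 0.13) and Grin2d (-0.24 to 0.019). In female against male they were Grin1 (-0.035 to 0.15) and Grin3a (-0.0097 to 0.018). In the sex difference they were Grin2c (-0.065 to 0.43), Grin2d (-0.78 to 0.17) and Grin3a (-0.094 to 0.092). Grin3a also reversed without a filter in female against male (-0.0094), and in the sex difference with DESeq2 size factors (0.0010), DESeq2 (0.00098) and no filter (0.0038). Ratio slopes that crossed 0 were Grin2a/Grin1 (-0.057 to 0.076), Grin2b/Grin1 (-0.12 to 0.039), Grin2c/Grin2a (-0.14 to 0.061) and the sum of Grin2a to Grin2d over Grin1 (-0.098 to 0.049). Grin2d kept its sign but varied widely in UTRmut against WT (-0.57 to -0.0035) and in het against WT (-0.78 to -0.16). Depth limits Grin2d most, at 38 to 76 counts a library.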
